A study of Mus musculus with 8 samples.

Results

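The genes described here are the platelet-derived growth factor (PDGF) ligands Pdgfa, Pdgfb, Pdgfc and Pdgfd and the receptors Pdgfra and Pdgfrb. They were taken by symbol from the count tables, and all 6 were found among the 23420 genes listed. All 6 also passed the filter on low counts, which left 14598 genes for testing. The data are 8 polyadenylated RNA sequencing libraries of mouse uterine stromal cells at day 3, from a study of stromal Erbb3 and uterine glands. There were 4 libraries labelled Erbb3f/f, the usual notation for a homozygous loxP-flanked allele of the ERBB receptor gene Erbb3, and 4 labelled Erbb3d/d, the usual notation for the allele after recombination. No other allele or treatment is named for either group. The Cre line, the age of the females, the event from which day 3 is counted, the isolation of the cells and whether animals were pooled are not given in the sources used here. No label says that the libraries came from separate animals, so the p-values measure the spread between these libraries only.

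PDGF chains are secreted as dimers that bind receptor tyrosine kinases. The receptor encoded by Pdgfra binds the A, B and C chains, and the receptor encoded by Pdgfrb binds the B and D chains most strongly. The A and B chains are cut by furin-like convertases inside the cell, while the C and D chains are released in a latent form and are activated outside the cell by proteases such as the tissue and urokinase plasminogen activators. In many organs Pdgfra marks fibroblasts and Pdgfrb marks mural cells and a wide range of fibroblasts, epithelium is a frequent source of Pdgfa, and endothelium a frequent source of Pdgfb.

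The libraries held 8578575 to 12854367 reads assigned to genes. Erbb3 itself had 7.40, 10.6, 8.25 and 12.3 CPM (the read count scaled to a common library size) across Erbb3f/f replicates 1 to 4, and 7.37, 14.3, 17.7 and 16.2 CPM across Erbb3d/d replicates 1 to 4. It was not lower under the Erbb3d/d label (edgeR's adjusted p = 0.485), although a whole-gene count cannot show the loss of single exons. Directions below therefore follow the labels. Erbb3d/d replicate 2 stood apart, since leaving it out took the genes past an adjusted p of 0.05 in edgeR from 0 to 259, while leaving out any other library gave 0. All stromal fibroblast markers examined were present, with a summed level of 16006 to 22269 CPM in the libraries labelled Erbb3f/f and 13520 to 19594 CPM in those labelled Erbb3d/d. Col6a1 and Col3a1, the most abundant of them, had means of 4703 and 3447 CPM in Erbb3f/f.

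In these cells Pdgfra had the highest mean level per length of the 6 genes, and the plainest genotype difference was in Pdgfra, which was lower in every library labelled Erbb3d/d than in any labelled Erbb3f/f. Pdgfrb was not lower, and the excess of Pdgfra over Pdgfrb was smaller there. Pdgfa and Pdgfb had higher means in the libraries labelled Erbb3d/d, and Pdgfd was low in 3 of those 4. With all 8 libraries, edgeR's quasi-likelihood test put no PDGF gene under an adjusted p of 0.05 and none of the 14598 genes, so 0 of 6 stood against a background of 0%. At an unadjusted p under 0.05 there were 3 of 6, namely Pdgfra, Pdgfa and Pdgfb, against 11.6% of all genes tested. The call on Pdgfra depended on the tool, because DESeq2 called it and no other of the 6, against a background of 1.80%.

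**Figure D1:**
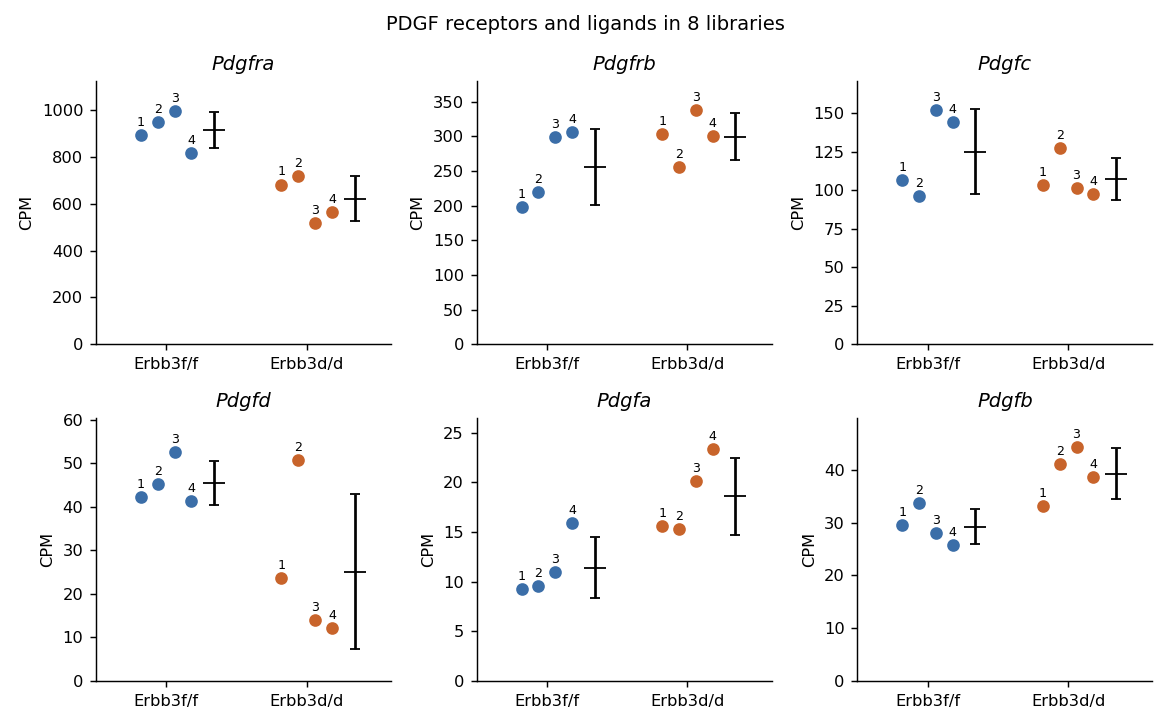
Normalised read count (CPM, vertical axis from 0) of each PDGF receptor and ligand in the libraries labelled Erbb3f/f (blue) and Erbb3d/d (orange). Numbers beside the points are replicate numbers, and the bars are the mean and SD of 4 libraries. Pdgfra separates the labels completely, while Pdgfd is low in Erbb3d/d replicates 1, 3 and 4 and stays at the Erbb3f/f level in replicate 2.

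Pdgfra, the receptor for A, B and C chains, is on the plus strand of chromosome 5 (75152292 to 75198215) (GRCm38, GENCODE vM21), with 27 merged exons. It was counted with 9182, 9088, 12716 and 7225 reads across Erbb3f/f replicates 1 to 4, which is 894, 952, 999 and 817 CPM. In Erbb3d/d replicates 1 to 4 it had 6948, 6183, 6598 and 6430 reads, which is 683, 721, 520 and 564 CPM. The groups did not overlap, and Erbb3d/d replicates 3 and 4 were the lowest. The Erbb3f/f mean was 916 ± 78.4 CPM and the Erbb3d/d mean 622 ± 95.4 CPM (SD, n = 4 each), a ratio of 0.679. This is a log2 fold change of -0.56 (SE 0.13, 95% interval -0.84 to -0.28), and edgeR gave an adjusted p of 0.206. A two-sided exact permutation test of this gene alone gave p = 0.0286, the smallest that 4 against 4 libraries allow. Pdgfra was the only one of the 6 genes whose groups did not overlap on the lower side, against 2.48% of all genes tested. None of the 6 was without overlap on the higher side, against 2.56%.

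Pdgfra ranked 77th by p among the genes tested. DESeq2 gave it an adjusted p of 0.00484, and without Erbb3d/d replicate 2 edgeR gave a log2 fold change of -0.63 and an adjusted p of 0.0395. Over the 16 alternative settings it was lower in the libraries labelled Erbb3d/d in 16, with adjusted p-values from 0.00484 to 0.9998. The last of these came from the fit with the epithelial marker mean as a covariate, in which the log2 fold change was -0.32 (SE 0.13). All the PDGF genes shared that adjusted p in this fit. Stromal fibroblast markers lay in the same direction as Pdgfra, with 9 of 12 lower and 3 higher under the Erbb3d/d label, a median log2 fold change of -0.24 and 0 past an adjusted p of 0.05. Their part in the result was not tested. The libraries keep no strand information, per the labels' protocols. Of the exons of Pdgfra, 652 bp are shared with other annotated genes, Gm42802 and Gm42803 on the other strand and Mir7025. Reads from these cannot be told apart from those of Pdgfra.

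The sequences upstream of Pdgfra, Pdgfd and Pdgfa are shown because these 3 genes had the largest log2 fold changes of the 6. Each is the 250 bases before a RefSeq transcript start on GRCm38.p6, read 5′ to 3′ on the gene's strand. Such windows were examined for 4 of the 6 genes, which did not include Pdgfb and Pdgfrb. Capitals mark a match on either strand to one of 4 promoter motifs. The TATA box was searched as TATAAA and was in 12.4% of 32851 upstream windows of the same length. The CCAAT box, searched under those letters, was in 33.8%. The GC box was searched as GGGCGG and was in 32.7%. The core of the element of the progesterone and glucocorticoid receptors was searched as TGTTCT and was in 16.1%. No searched motif contains another.
Pdgfra, chr5:75152001-75152250, plus strand: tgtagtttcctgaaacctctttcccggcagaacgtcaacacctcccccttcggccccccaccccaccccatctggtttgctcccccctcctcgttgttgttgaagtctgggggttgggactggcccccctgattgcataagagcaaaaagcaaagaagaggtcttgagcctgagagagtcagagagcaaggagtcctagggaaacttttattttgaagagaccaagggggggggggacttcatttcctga
Pdgfd, chr9:6168236-6168485, plus strand: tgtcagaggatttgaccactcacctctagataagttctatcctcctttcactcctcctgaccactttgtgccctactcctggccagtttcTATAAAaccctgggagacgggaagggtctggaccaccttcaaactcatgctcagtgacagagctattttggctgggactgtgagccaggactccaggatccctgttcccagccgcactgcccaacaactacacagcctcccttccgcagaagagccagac
Pdgfa, chr5:138994945-138995194, minus strand, the outer of 2 RefSeq starts: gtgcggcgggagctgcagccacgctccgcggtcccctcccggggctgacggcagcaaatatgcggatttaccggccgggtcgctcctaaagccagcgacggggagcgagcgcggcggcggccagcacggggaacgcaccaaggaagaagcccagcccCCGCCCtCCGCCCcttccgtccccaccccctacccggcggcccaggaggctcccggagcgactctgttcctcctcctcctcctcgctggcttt

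The Pdgfa window was GC-rich, with 72.4% G and C against a median of 52.4% over all windows, and held 2 adjacent GC boxes that begin 93 and 86 bases before the start. The Pdgfd window had 53.6% G and C and 1 TATA box sequence, 160 bases before the start. The Pdgfra window had 54.4% G and C and none of the 4 motifs. A match is a description of letters only, and nothing about factor binding was measured here.

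Pdgfrb, the receptor for B and D chains, is on the plus strand of chromosome 18 (61045150 to 61085061) and shares no exonic sequence with another annotated gene. It had 198, 219, 299 and 307 CPM across Erbb3f/f replicates 1 to 4 and 304, 256, 338 and 300 CPM across Erbb3d/d replicates 1 to 4. The labels overlapped widely, since Erbb3f/f replicates 3 and 4 were at the level of the Erbb3d/d libraries and only Erbb3d/d replicate 3 exceeded them all. The Erbb3f/f mean was 256 ± 55.2 CPM and the Erbb3d/d mean 300 ± 33.7 CPM (SD, n = 4 each), with a log2 fold change of 0.23 (SE 0.15, 95% interval -0.11 to 0.56), for which edgeR gave an adjusted p of 0.581. The exact permutation test gave p = 0.257. With the smooth muscle marker mean as covariate, the log2 fold change was 0.47 (SE 0.21) and with the pericyte marker mean 0.29 (SE 0.09), with adjusted p-values of 0.598 and 0.151. Over its 16 alternatives the adjusted p ran from 0.151 to 0.9998, and without Erbb3f/f replicate 1 the log2 fold change was 0.13.

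The balance of the receptors was read within each library, where it does not depend on the scaling between libraries. Per kilobase of merged exon, Pdgfra exceeded Pdgfrb by 2.47, 2.37, 1.83 and 1.45 times across Erbb3f/f replicates 1 to 4. In Erbb3d/d replicates 1 to 4 the ratio was 1.23, 1.54, 0.840 and 1.03. Erbb3d/d replicate 2, at 1.54, lay just above Erbb3f/f replicate 4, at 1.45, and the other libraries labelled Erbb3d/d lay below all of Erbb3f/f. On the log2 scale the read ratio was 1.86 ± 0.356 under Erbb3f/f and 1.05 ± 0.372 under Erbb3d/d (SD, n = 4 for both), a difference of -0.81. This ratio is given as a description with no test.

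Scaled by the length of merged exons, the 6 genes had the same order in each Erbb3f/f library. Pdgfra was first at 91.3 ± 7.82 CPM per kb, followed by Pdgfrb at 46.7 ± 10.1, Pdgfc at 24.5 ± 5.41, Pdgfd at 14.4 ± 1.63, Pdgfb at 7.03 ± 0.806 and Pdgfa at 3.66 ± 0.996 CPM per kb (SD, n = 4 each). No neighbours in that order overlapped between libraries. In Erbb3d/d the means were 62.1 ± 9.52 for Pdgfra, 54.7 ± 6.14 for Pdgfrb, 21.1 ± 2.67 for Pdgfc, 9.45 ± 1.15 for Pdgfb, 7.96 ± 5.65 for Pdgfd and 5.96 ± 1.24 CPM per kb for Pdgfa (SD, n = 4 each). There the receptors overlapped each other, and Pdgfd, at 3.84 to 16.1 CPM per kb, spanned the ranges of Pdgfa and Pdgfb. These levels depend on the length assigned to a gene. With the longest coding transcript in place of merged exons, chosen after seeing the data, Pdgfra was 91.0 ± 14.0 and Pdgfrb 55.3 ± 6.21 CPM per kb in Erbb3d/d (SD, n = 4 each), and their ranges no longer overlapped. With these lengths Pdgfrb and Pdgfc, which had not overlapped in Erbb3f/f, did so, at 36.5 to 56.6 and 27.3 to 43.2 CPM per kb, and in Erbb3d/d the mean of Pdgfd, 8.02 CPM per kb, lay under that of Pdgfa, 9.02 CPM per kb.

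**Figure D2:**
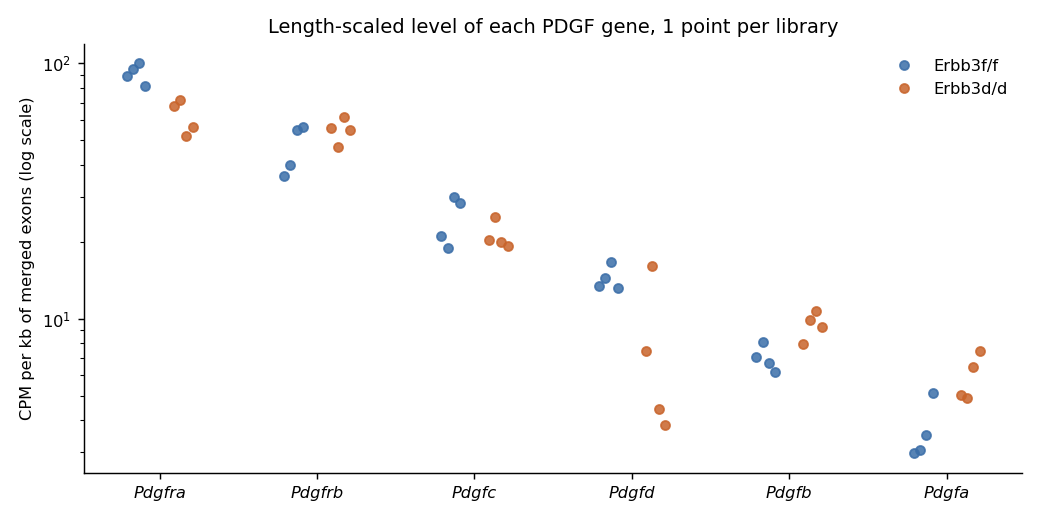
Level of each PDGF gene in CPM per kilobase of merged exon (vertical log axis), with 1 point per library, blue for Erbb3f/f and orange for Erbb3d/d. The receptors and Pdgfc lie above the other ligands in every library, the orange Pdgfd points reach down to the level of Pdgfa, and the orange Pdgfra points reach down to the level of Pdgfrb.

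Among the ligands of the receptor encoded by Pdgfra, Pdgfa was the least abundant. It is on the minus strand of chromosome 5 (138976014 to 138997370). It had 95, 91, 139 and 141 reads across Erbb3f/f replicates 1 to 4 and 159, 131, 255 and 266 reads across Erbb3d/d replicates 1 to 4. These are 9.25, 9.53, 10.9 and 15.9 CPM against 15.6, 15.3, 20.1 and 23.3 CPM. Erbb3d/d replicates 3 and 4 were above every Erbb3f/f library, while Erbb3d/d replicates 1 and 2 were just below Erbb3f/f replicate 4. The Erbb3f/f mean was 11.4 ± 3.11 CPM and the Erbb3d/d mean 18.6 ± 3.85 CPM (SD, n = 4 each), a ratio of 1.63. This is a log2 fold change of 0.71 (SE 0.22, 95% interval 0.22 to 1.19), and edgeR gave an adjusted p of 0.305, and the exact permutation test gave p = 0.0857. Counting error alone would give a coefficient of variation of 9.26% at the mean read number of Erbb3f/f, where 27.2% was observed.

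Epithelial markers were set beside Pdgfa. Of 18 tested, 15 had a higher mean in the libraries labelled Erbb3d/d and 0 passed an adjusted p of 0.05, and 11 of the 15 had an unadjusted p under 0.05, as had 969 of all 14598 genes on the higher side. The epithelial markers summed to 1608, 1434, 1086 and 1781 CPM across Erbb3f/f replicates 1 to 4. In Erbb3d/d replicates 1 to 4 the sums were 1636, 1713, 2636 and 2691 CPM, with replicates 3 and 4 again the highest. Not all libraries followed Pdgfa, as replicate 1 had similar sums under both labels but 9.25 and 15.6 CPM of Pdgfa. Erbb3f/f replicate 3 had the lowest sum and, at 10.9 CPM, more Pdgfa than Erbb3f/f replicates 1 and 2. With the epithelial marker mean as covariate, the log2 fold change of Pdgfa was 0.37 (SE 0.26), with an unadjusted p of 0.181 in edgeR. Its adjusted p was 0.9998, against 0.0707 to 0.701 over its other alternatives. Every PDGF gene had that adjusted p in the fit with this covariate, so the value is not particular to Pdgfa. The covariate was itself higher in most libraries labelled Erbb3d/d, and the part of epithelial content in the Pdgfa values was not tested. Of the most abundant epithelial markers, Cldn3 had means of 262 and 225 CPM and Cdh1 182 and 272 CPM in Erbb3f/f and Erbb3d/d. In bulk RNA a different number of cells of a type and a different RNA level per cell cannot be told apart. Pdgfa also shares 813 bp of exonic sequence with 6330403L08Rik on the other strand, whose reads cannot be separated from its own.

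Pdgfc, the most abundant ligand by length-scaled level, is on the plus strand of chromosome 3 (81036416 to 81214040). It had 107, 96.2, 152 and 144 CPM across Erbb3f/f replicates 1 to 4 and 103, 128, 101 and 97.7 CPM across Erbb3d/d replicates 1 to 4. Erbb3f/f replicates 3 and 4 were higher than all others. Erbb3d/d replicate 2 came next, at 128 CPM, and the remaining libraries of both labels lay together at 96.2 to 107 CPM. The Erbb3f/f mean was 125 ± 27.5 CPM and the Erbb3d/d mean 108 ± 13.6 CPM (SD, n = 4 each). This is a log2 fold change of -0.22 (SE 0.16, 95% interval -0.56 to 0.13), and edgeR gave an adjusted p of 0.610. The exact permutation test gave p = 0.286. It was lower in the libraries labelled Erbb3d/d in 15 of its 16 alternatives, and the smooth muscle covariate reversed the sign, at 0.08 (SE 0.20). The epithelial covariate kept the sign but gave only -0.04. Its size rested on the high Erbb3f/f libraries, with -0.11 without Erbb3f/f replicate 3 and -0.14 without replicate 4. It shares 147 bp of exonic sequence with Gm16000 on the other strand, with the same limit.

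The balance of these ligands with their receptor and with each other was also read within each library. The log2 ratio of Pdgfa to Pdgfra reads was -6.59, -6.64, -6.52 and -5.68 across Erbb3f/f replicates 1 to 4 and -5.45, -5.56, -4.69 and -4.60 across Erbb3d/d replicates 1 to 4. The libraries labelled Erbb3d/d all had more Pdgfa per Pdgfra read, but Erbb3f/f replicate 4 was close to Erbb3d/d replicates 1 and 2. The log2 ratio of Pdgfc to Pdgfa reads was 3.46 ± 0.268 under Erbb3f/f and 2.55 ± 0.437 under Erbb3d/d (SD, n = 4 for both). Pdgfc was the larger of the pair in all 8 libraries. No test was made of these ratios.

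Among the ligands of the receptor encoded by Pdgfrb, Pdgfb is on the minus strand of chromosome 15 (79995874 to 80014977). It had 29.5, 33.7, 28.0 and 25.8 CPM across Erbb3f/f replicates 1 to 4 and 33.1, 41.2, 44.4 and 38.6 CPM across Erbb3d/d replicates 1 to 4. Only Erbb3d/d replicate 1 fell within the Erbb3f/f range, just under Erbb3f/f replicate 2. The Erbb3f/f mean was 29.2 ± 3.35 CPM and the Erbb3d/d mean 39.3 ± 4.78 CPM (SD, n = 4 each), a ratio of 1.34. This is a log2 fold change of 0.43 (SE 0.13, 95% interval 0.14 to 0.71), and edgeR gave an adjusted p of 0.296. The exact permutation test gave p = 0.0571. It was higher in the libraries labelled Erbb3d/d in all of its 16 alternatives, with log2 fold changes of 0.35 to 0.52, and passed an adjusted p of 0.05 in 0 of them.

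Endothelial markers were set beside Pdgfb. Their summed level was 863, 878, 543 and 529 CPM across Erbb3f/f replicates 1 to 4 and 714, 975, 549 and 678 CPM across Erbb3d/d replicates 1 to 4. The Erbb3f/f libraries had the same order in Pdgfb and in these markers, with replicate 2 highest and replicate 4 lowest, while Erbb3d/d replicate 3, the highest in Pdgfb, was the lowest of its label in these markers. Their part in the result was not tested. Of the 14 tested, 12 had a higher and 2 a lower mean under the Erbb3d/d label, with a median log2 fold change of 0.12. The most abundant were Sox17, at 203 and 220 CPM, and Cdh5, at 196 and 151 CPM in Erbb3f/f and Erbb3d/d. Pecam1 was at 52.0 and 56.0 CPM, so Sox17 and Cdh5 weigh most in the sum. Which cells held these RNAs was not measured. Platelets, which store PDGF protein, left little RNA, as the platelet markers summed to 6.91 to 8.03 CPM under Erbb3f/f and 6.53 to 15.9 CPM under Erbb3d/d.

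Pdgfd is on the plus strand of chromosome 9 (6168584 to 6378850). It had 435, 433, 671 and 366 reads across Erbb3f/f replicates 1 to 4 and 240, 435, 177 and 138 reads across Erbb3d/d replicates 1 to 4. These are 42.4, 45.3, 52.7 and 41.4 CPM against 23.6, 50.7, 13.9 and 12.1 CPM. Erbb3d/d replicate 2 was at the top of the Erbb3f/f range and the other 3 libraries labelled Erbb3d/d were below all of it. The Erbb3f/f mean was 45.5 ± 5.13 CPM and the Erbb3d/d mean 25.1 ± 17.8 CPM (SD, n = 4 each), so the coefficient of variation was 11.3% under the former and 71.0% under the latter label. This gives a log2 fold change of -0.87 (SE 0.41, 95% interval -1.79 to 0.05), and edgeR gave an adjusted p of 0.452. The exact permutation test gave p = 0.114.

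A single library decided the call on Pdgfd. Without Erbb3d/d replicate 2, edgeR gave a log2 fold change of -1.46 (SE 0.22) and an adjusted p of 0.0173, within a range of 0.0173 to 0.9998 over all of its alternatives. In that fit 2 of the 6 genes, Pdgfd and Pdgfra, passed 0.05, against 1.75% of all genes tested. With the epithelial marker mean as covariate, the log2 fold change of Pdgfd was -0.24 (SE 0.38), and Erbb3d/d replicates 3 and 4, lowest in Pdgfd, were the highest in epithelial markers. Erbb3d/d replicates 1 and 2 had nearly the same epithelial level, at 1636 and 1713 CPM, and Pdgfd levels of 23.6 and 50.7 CPM. Of 18 epithelial markers, 15 had a higher mean under the Erbb3d/d label, so this covariate and the label cannot be told apart. The part of epithelial content in the Pdgfd values was not tested.

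**Figure D3:**
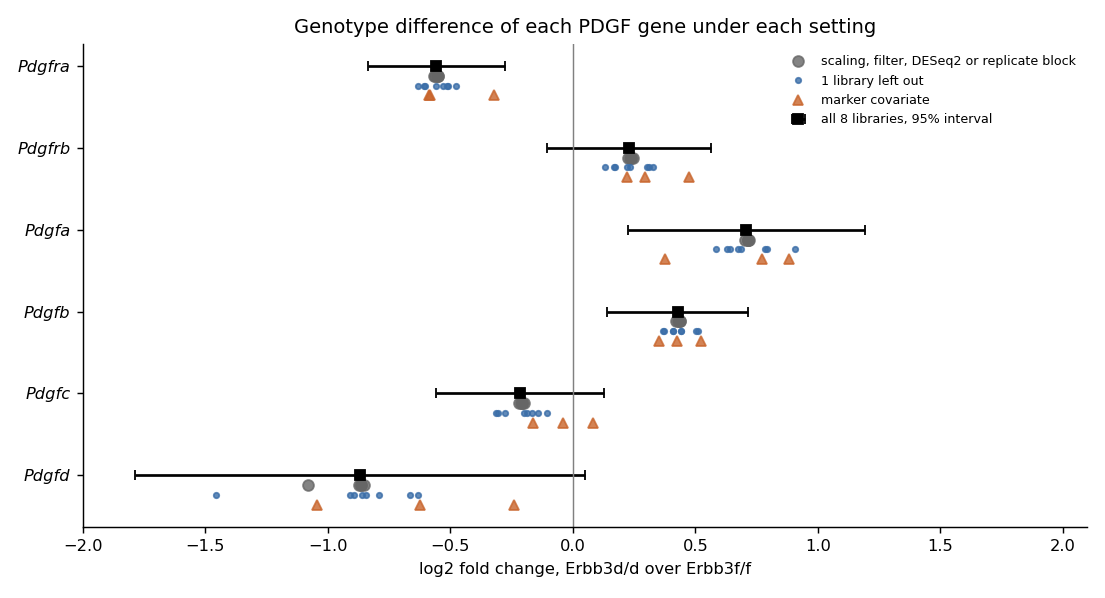
Log2 fold change of each PDGF gene, Erbb3d/d over Erbb3f/f (horizontal axis), with all 8 libraries and its 95% interval (black squares) and under other settings (grey, blue and orange marks below each square). The estimates of Pdgfra stay below 0 and those of Pdgfa, Pdgfb and Pdgfrb above 0 under all settings. The estimate of Pdgfc crosses 0 with 1 covariate, and that of Pdgfd runs from -1.46 to -0.24. The 95% intervals of Pdgfrb, Pdgfc and Pdgfd include 0.

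Markers of mural and muscle cells were set beside the receptors, since Pdgfrb is also expressed there. Pericyte markers summed to 303, 365, 135 and 144 CPM across Erbb3f/f replicates 1 to 4 and 295, 301, 171 and 191 CPM across Erbb3d/d replicates 1 to 4. In both labels replicates 1 and 2 were the high ones, and in Erbb3f/f these were the libraries with the lowest Pdgfrb. Rgs5, the most abundant pericyte marker, had means of 70.4 and 46.9 CPM and Mcam 40.8 and 57.2 CPM in Erbb3f/f and Erbb3d/d. Of 12 smooth muscle markers tested, 11 had a higher mean under the Erbb3d/d label and 0 passed an adjusted p of 0.05. On the higher side 10 had an unadjusted p under 0.05 in edgeR, as had 969 of all 14598 genes. Without overlap on that side were 3, against 2.56% of all genes tested. The smooth muscle markers had a median log2 fold change of 0.996, with sums of 1604 to 2648 CPM under Erbb3f/f and 2438 to 5298 CPM under Erbb3d/d. Tagln was at 281 and 661 CPM, while Synpo2, the most abundant of the list, was at 626 and 515 CPM. With the smooth muscle or the pericyte marker mean as covariate, Pdgfra had a log2 fold change of -0.59 in both fits, with adjusted p-values of 0.516 and 0.0579. Macrophage and leukocyte markers, led by Lyz2 and C1qb, summed to 1285 to 3140 CPM under Erbb3f/f and 1889 to 2324 CPM under Erbb3d/d, and their part in any PDGF value was not tested.

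**Figure D4:**
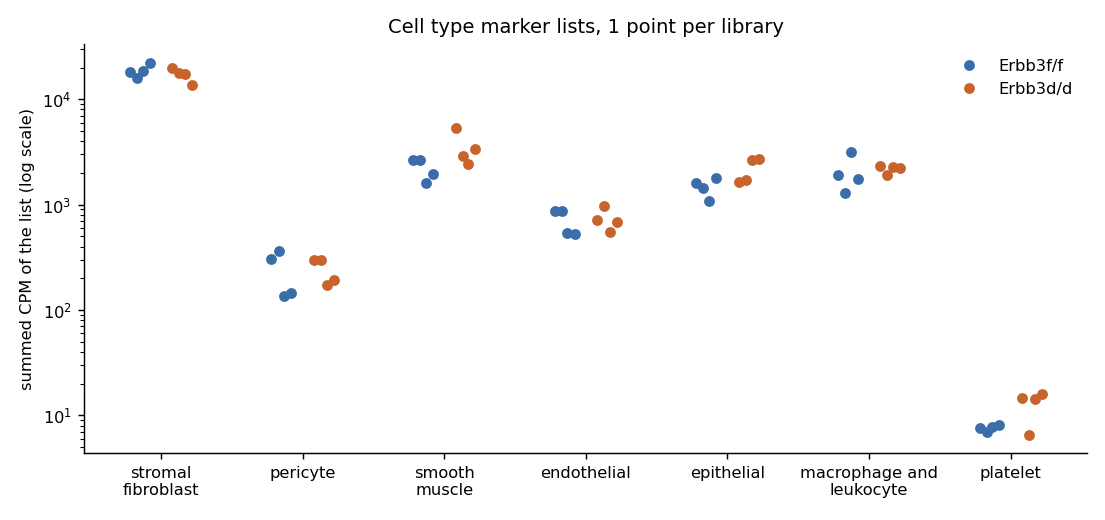
Summed CPM of each cell type marker list (vertical log axis), with 1 point per library, blue for Erbb3f/f and orange for Erbb3d/d. Epithelial sums are highest in Erbb3d/d replicates 3 and 4, and pericyte sums are higher in replicates 1 and 2 than in replicates 3 and 4 under both labels.

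Of the lists of other pathway genes, the enzymes that cut PDGF chains had the median furthest from 0. Among 7 processing enzymes, 6 had a higher and 1 a lower mean in the libraries labelled Erbb3d/d, and the median log2 fold change was 0.98, against -0.01 over all 14598 genes. In edgeR's test 0 of the 7 reached an adjusted p under 0.05, and 5 had an unadjusted p under 0.05, against 1695 of all 14598 genes. Epithelial markers (median 0.57) and smooth muscle markers (median 0.996) also had higher means under the Erbb3d/d label, and their part in the enzyme values was not tested. Plau, the urokinase plasminogen activator, had 21.3, 14.9, 19.5 and 21.4 CPM across Erbb3f/f replicates 1 to 4 and 59.6, 31.3, 38.8 and 69.1 CPM across Erbb3d/d replicates 1 to 4. The labels did not overlap, and the log2 fold change was 1.37 (SE 0.25), adjusted p = 0.133. Pcsk5, a furin-like convertase, was the only one with a lower mean, with 160 ± 39.0 CPM under Erbb3f/f against 79.3 ± 46.3 CPM under Erbb3d/d (SD, n = 4 for both). Its log2 fold change was -1.02 (SE 0.39), adjusted p = 0.377. Its libraries labelled Erbb3d/d followed the order seen in Pdgfd, with 138 CPM in replicate 2 and 94.7, 43.9 and 40.5 CPM in replicates 1, 3 and 4. Those labelled Erbb3f/f did not, as replicate 1 exceeded replicate 2 in Pcsk5 and was below it in Pdgfd.

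Plat, Pcsk6, St14 and Furin were named after their values were seen, and the first 3 had higher means under the Erbb3d/d label. Plat, the tissue plasminogen activator, had 195 ± 65.3 CPM under Erbb3f/f against 412 ± 147 CPM under Erbb3d/d (SD, n = 4 for both), a log2 fold change of 1.08 (SE 0.30). Pcsk6, a further convertase, had 11.7 ± 2.28 and 25.8 ± 9.69 CPM (SD, n = 4 each), and St14, the membrane protease matriptase of epithelia, 37.9 ± 13.6 and 74.2 ± 31.8 CPM (SD, n = 4 each). For these, edgeR gave adjusted p-values of 0.285, 0.237 and 0.337. Furin had the same level under both labels within the spread, at 155 ± 14.4 and 155 ± 14.9 CPM (SD, n = 4 each).

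The receptor effectors inside the cell differed little. Of 24 receptor effectors tested, 11 had a higher and 13 a lower mean, with a median log2 fold change of -0.01, and 0 passed an adjusted p of 0.05. The furthest were the adaptor Gab2, with a log2 fold change of 0.29 (SE 0.15), and the PI3-kinase subunit Pik3r2, with -0.23 (SE 0.10). Their adjusted p-values were 0.499 and 0.416. Of 11 attenuators, 6 had a higher and 5 a lower mean, with a median of 0.05. The phosphatase gene Ptprj had 73.1 ± 10.1 and 97.6 ± 25.4 CPM and the adaptor gene Grb10 had 355 ± 44.9 and 263 ± 49.8 CPM in Erbb3f/f and Erbb3d/d (SD, n = 4 each). Their log2 fold changes were 0.42 (SE 0.18) and -0.43 (SE 0.14), with adjusted p-values of 0.413 and 0.311 in edgeR.

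Proteins that bind PDGF or its receptors at the surface were also near the median of all genes. Of 4 tested, 2 had a higher and 2 a lower mean, led by the receptor-like gene Pdgfrl at 0.19 (SE 0.27) and the matrix protein gene Sparc at -0.13 (SE 0.18) on the log2 scale. Among 7 genes of related class III receptors and their ligands, 5 had a higher and 2 a lower mean, with a median of 0.13. The cytokine gene Flt3l had a log2 fold change of 0.32 (SE 0.28) and the receptor gene Kit one of -0.10 (SE 0.30). None of these genes passed an adjusted p of 0.05.

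**Figure D5:**
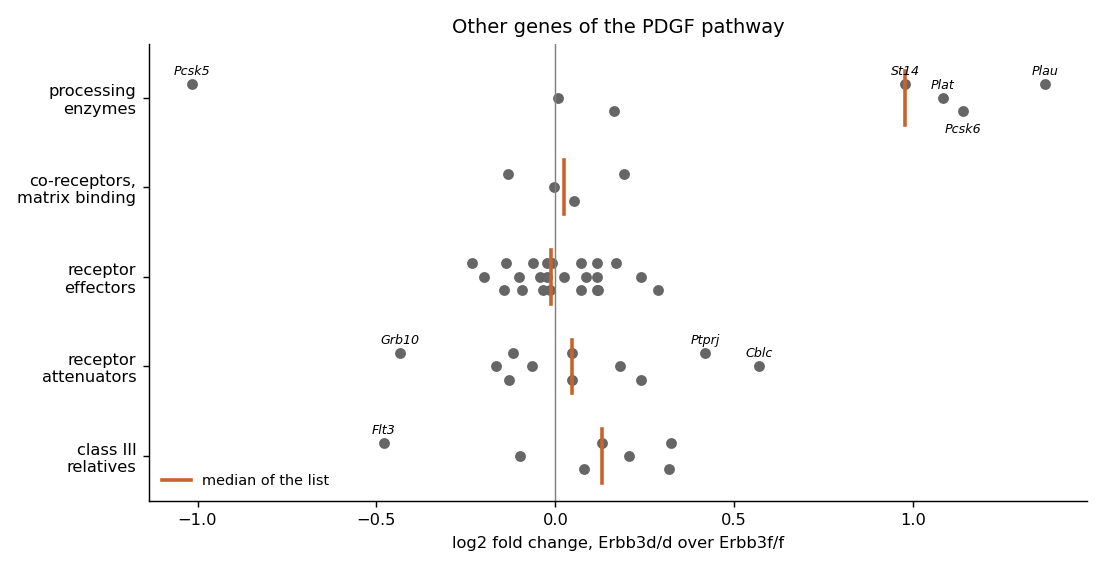
Log2 fold change, Erbb3d/d over Erbb3f/f (horizontal axis), of every tested gene in 5 lists of other PDGF pathway genes, with 1 point per gene and the list median as an orange line. Genes beyond 0.4 in either direction are named. The processing enzymes spread from -1.02 to 1.37, while the effectors lie between -0.23 and 0.29.

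For each PDGF gene, the genes with the most similar pattern were found by Pearson's r of log2 CPM over the 8 libraries, among 11035 other genes of at least 10 CPM. These r values are the highest of many and share the 2 labels, so they are given as a description with no p. Nearest to Pdgfra were Iqsec1 (r = 0.989), Wdr3 (0.977) and Jak1 (0.977). Nearest to Pdgfd were Ldlrad4 (r = 0.996), Sox12 (0.991) and Pkdcc (0.990). Pkdcc had 767 CPM in Erbb3d/d replicate 2 and 403, 216 and 232 CPM in replicates 1, 3 and 4, so replicate 2 stood highest as in Pdgfd. Nearest to Pdgfa were Apol9b (r = 0.988), which has a near-identical neighbour so that its count is uncertain, Fzd10 (0.988) and Adrbk2 (0.983). Fzd10 had 12.8, 13.4, 20.6 and 34.3 CPM across Erbb3f/f replicates 1 to 4 and 33.8, 35.8, 77.5 and 88.0 CPM across Erbb3d/d replicates 1 to 4, which places Erbb3f/f replicate 4 beside Erbb3d/d replicates 1 and 2, as in Pdgfa. Nearest to Pdgfb were Smad6 (r = 0.952), Arid5b (0.943) and Pbrm1 (0.928). Near to Pdgfc were Serpinb1a (r = 0.949) and H6pd (0.947). Nearest to Pdgfrb were Trim8 (r = 0.981), Ubap1 (0.973) and Ankrd35 (0.966).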

How the data were processed

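Polyadenylated RNA of 8 libraries was sequenced, 4 per label. The authors deposited 1 table of raw read counts per gene symbol for each library, without normalization. HISAT2, SAMtools, HTSeq and StringTie and the builds mm10 and GRCm38 are named in the submitters' processing notes, and the annotation and counting options are not given in the sources used here. The lines that name no gene, 70.9% to 73.0% of entries, were left out of library sizes and tests. Replicates differed by more than counting noise in every pair of a label.

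The main analysis used edgeR 4.0.16 under R 4.3.3, after filterByExpr and TMM scaling, by the quasi-likelihood test (robust) of the label, with Benjamini-Hochberg adjustment over all 14598 genes and a threshold of 0.05. CPM uses the TMM-scaled library size, and a log2 fold change is Erbb3d/d over Erbb3f/f. For single genes, an exact permutation test, two-sided, was run on log2(CPM + 0.5) over 70 assignments. The code was tested on simulated data. Alternatives were RLE and upper quartile scaling, no filter beyond 1 read, DESeq2 1.42.0, a replicate block, epithelial, smooth muscle or pericyte marker means as covariates, and leaving out each library. Positions and exon lengths came from GENCODE vM21 and promoters from RefSeq (GRCm38.p6).

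The 6 genes and all lists were chosen with earlier results of these data known. Besides the 6, the text names, per pathway list, the gene of at least 5 CPM furthest in each direction where none passed the test, the 2 most abundant markers per list and the 3 most similar genes. Hras and Adgre1 are on the lists and were not used here. Some genes that the rule would name are not reported here.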

Additional observations from a re-analysis of the deposited data

Results flagged for a closer look

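A search for single libraries standing apart covered 32 sets of 4 libraries and found 2, where chance at 1 in 20 gives 1.6.

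The log2 ratio of Pdgfa to Pdgfra reads in Erbb3f/f replicate 4 was -5.68, whereas the next highest library of its label was at -6.52. This library had the highest Pdgfa level, 15.9 CPM, and the lowest Pdgfra level, 817 CPM, of its label. Without it the log2 fold change was 0.91 for Pdgfa and -0.61 for Pdgfra.

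The summed level of platelet markers in Erbb3d/d replicate 2 was 6.53 CPM, whereas the next lowest of its label was at 14.4 CPM. The sum rests on few reads per gene.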

How the results depend on the processing

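Scaling, the gene filter and the replicate block changed the direction of none of the 6 genes and brought none past 0.05. The replicate block was run because the labels share replicate numbers. Same-numbered libraries had correlations of 0.221, 0.159, 0.0959 and 0.145, all of them positive. Erbb3f/f replicates 1, 2 and 3 and Erbb3d/d replicates 1 and 4 matched best with their own number, and the remaining libraries with another number. The labels do not say that the numbers are pairs, so the block was kept as an alternative. Whether same-numbered libraries belong together was not settled. The block gave Pdgfra -0.57 (adjusted p = 0.108) and Pdgfd -1.08 (adjusted p = 0.218), and called 52 genes of all tested, against 0 without it. DESeq2 called 262 genes, 203 higher and 59 lower, with Pdgfra at -0.55, and the pericyte covariate called 101. Leaving out 1 library gave 0 to 259 calls, the latter without Erbb3d/d replicate 2 and 0 without any other. The log2 fold change then ran from -0.63 to -0.48 for Pdgfra and from -1.46 to -0.63 for Pdgfd. Pdgfc had a log2 fold change of 0.082 with the smooth muscle covariate, the only reversal among the 6 genes. The cause of these changes was not tested. At an unadjusted p under 0.05 the test with all libraries had 1695 genes. Depth limits Pdgfa most, with 91 to 266 reads per library.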
